A study of Mus musculus with 17 samples.

Results

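Rbpj, its processed pseudogene Rbpj-ps3 and 8 other genes of the Notch pathway (Notch1, Notch2, Notch3, Jag1, Hes1, Hes5, Hey1 and Heyl) were followed in testes and forebrain of newborn mice lacking 1 or both alleles of Osteocalcin (Ocn), the gene of a hormone secreted by bone. The 10 genes are those rows, of 55359 in the table of estimated read counts, whose Ensembl identifiers carry these symbols in the GENCODE mouse annotation, and all 10 passed the filter on low counts in both organs. Rbpj and Rbpj-ps3 were chosen by their measured values, for the difference between their mutant and WT libraries, so that difference is described here with no test. The other 8 were chosen for their place in the pathway, and their differences were tested within a fit of all genes.

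The libraries were made from mice at postnatal day 1, of the OcnGK strain kept on a 129/SvEv background. WT pups came from WT mothers, and both mutant genotypes came from Ocn-/- mothers, so the genotype of the pup, that of its mother and the litter cannot be told apart in a comparison with WT. Testes were sequenced from 2 WT, 3 Ocn+/- and 3 Ocn-/- pups, and forebrain from 3 pups of each genotype. The study's legend for its forebrain heatmap gives 2 WT mice, whereas all 3 WT forebrain libraries in GEO were used here. GEO's labels call the brain tissue hippocampus, the study's methods call it forebrain, and its results say that this includes the hippocampus. No source used here says whether libraries of a genotype came from different litters, so p-values measure only the spread between these libraries.

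Notch receptors sit on the cell surface and are cut by proteases once a Delta or Jagged ligand on a neighboring cell binds them. The freed intracellular part enters the nucleus and joins RBPJ, the DNA-binding protein of the pathway, which then recruits Mastermind coactivators, whereas RBPJ without Notch holds corepressors such as SPEN on the same genes. The best-known targets are the HES and HEY repressors, which keep radial glia of the developing forebrain in a progenitor state, while in the developing testis Notch signaling is known to hold back the differentiation of interstitial progenitors into fetal Leydig cells, and in blood vessels Jag1 and Notch3 link endothelial cells to the mural cells around them. A processed pseudogene is a copy of a spliced messenger RNA that was written back into the genome, and reads from it can be hard to tell from those of its parent.

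The sequence shared by Rbpj and Rbpj-ps3 decides which reads can be told apart, so it is given before the counts. Rbpj (ENSMUSG00000039191) lies at chr5:53623494-53814704 on the plus strand in GRCm39. Rbpj-ps3 (ENSMUSG00000079575) lies at chr6:46506288-46507728 on the minus strand, inside an intron of Cntnap2. All 1441 bases of the annotated pseudogene aligned without a gap to bases 274 to 1714 of the Rbpj transcript Rbpj-201, which has 11 exons and its coding sequence at bases 137 to 1714. The aligned stretch runs from exon 2 to exon 11 and lies wholly in coding sequence, and the pseudogene carries no stop codon in that reading frame over 480 codons. Identity was 99.72%, with 4 substitutions, written as the base of Rbpj, the position counted from 1 at the 5′ end of the pseudogene, and the base of the pseudogene: T310C, C949A, G952A and A1088C. The stretches around these positions are shown because they are the only places in the annotated pseudogene where a read can differ between the pair, and capitals mark the differing bases.
Rbpj, bases 280 to 340: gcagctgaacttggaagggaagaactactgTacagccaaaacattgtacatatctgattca
Rbpj-ps3, bases 280 to 340: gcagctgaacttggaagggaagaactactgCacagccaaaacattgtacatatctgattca
Rbpj, bases 919 to 982: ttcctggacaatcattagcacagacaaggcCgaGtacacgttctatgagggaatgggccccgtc
Rbpj-ps3, bases 919 to 982: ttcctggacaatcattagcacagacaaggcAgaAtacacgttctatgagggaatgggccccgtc
Rbpj, bases 1058 to 1118: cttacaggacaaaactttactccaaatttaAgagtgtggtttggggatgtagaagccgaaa
Rbpj-ps3, bases 1058 to 1118: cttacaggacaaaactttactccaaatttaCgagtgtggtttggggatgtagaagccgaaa

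Between positions 311 and 948 of the pseudogene the pair was identical over 638 bases. Bases 411 to 510 of that run are printed as an example of sequence that places a read in either gene equally well.
Both genes, bases 411 to 510: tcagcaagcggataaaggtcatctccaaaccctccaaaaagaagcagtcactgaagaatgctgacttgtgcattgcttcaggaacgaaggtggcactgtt

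Of the 50-base stretches of Rbpj-ps3, 89% also occurred in a transcript of Rbpj, and of its 100-base stretches 77.4% did. In the other direction, 22.9% of the 50-base and 19.4% of the 100-base stretches of Rbpj-201 occurred in the pseudogene. No annotated transcript of a gene other than Rbpj held a 50-base stretch of Rbpj-ps3. The copy in the genome was longer than its annotation: an alignment of Rbpj-201 to GRCm39 ran from 46503868 to 46507729 on chromosome 6, at 99.457% identity over 3862 bases, so that 2420 bases of the copy, which match the untranslated end of Rbpj, lie outside the annotated pseudogene.

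All libraries were checked before the genes were compared. Totals lay between 7302401 and 8289015 estimated counts in testes and between 6518151 and 14621584 in forebrain. Forebrain WT replicate 3 had the smallest total and stood apart, since its counts differed from those of the other WT forebrain libraries by a chi-square per degree of freedom of 69.9 and 90.8, against 3.57 to 13.2 for all other pairs of replicates, so forebrain results are also given without it. The targeted gene could not check the labels: Bglap, which encodes osteocalcin, had 0 counts in both WT testes libraries and 0 to 5 counts in WT forebrain, with 0 to 2 counts in any mutant library, and Bglap2 had 0 in all libraries. Labelled organs carried their markers, with 6 Sertoli markers summing to 1552 to 2485 CPM (counts scaled by normalized library size) in testes and 53.7 to 69.9 in forebrain, and 6 neuronal markers summing to 5590 to 6999 CPM in forebrain and 33.9 to 55.0 in testes.

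Rbpj was higher and Rbpj-ps3 lower in mutant testes. Estimated counts of Rbpj were 749 and 744 in WT, 1088, 1273 and 1188 in Ocn+/-, and 1314, 1352 and 1218 in Ocn-/- testes. Those of Rbpj-ps3 were 274 and 223 in WT, 22.9, 17.5 and 18.2 in Ocn+/-, and 30.9, 35.3 and 22.6 in Ocn-/- testes. The mutant libraries did not overlap WT for either row. After TMM normalization, which scales libraries so that most genes do not move, Rbpj stood at 95.5 ± 2.30 CPM (SD, n = 2) in WT, at 156 ± 10.1 (n = 3) in Ocn+/- and at 161 ± 10.1 (n = 3) in Ocn-/- testes, which is 1.64-fold and 1.68-fold of WT. Rbpj-ps3 went from 31.8 ± 5.15 CPM in WT to 2.58 ± 0.419 and 3.67 ± 0.819, a level 12.3-fold and 8.67-fold lower.

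The same directions were seen in forebrain. Rbpj counts were 494, 304 and 209 in WT, 994, 763 and 790 in Ocn+/-, and 938, 905 and 840 in Ocn-/- forebrain. Rbpj-ps3 counts were 88.0, 60.3 and 37.1 in WT, 21.1, 7.44 and 17.5 in Ocn+/-, and 8.42, 14.7 and 18.7 in Ocn-/- forebrain. Because library sizes differed more in forebrain, the levels are also given in CPM. Rbpj stood at 36.6 ± 1.43 in WT against 59.8 ± 7.11 and 66.3 ± 7.58, and Rbpj-ps3 stood at 6.75 ± 0.182 in WT against 1.06 ± 0.437 and 1.02 ± 0.371. All 6 mutant libraries were above all WT libraries for Rbpj and below them for Rbpj-ps3. The log2 differences from WT were 0.71 in Ocn+/- and 0.85 in Ocn-/- for Rbpj, and 0.72 and 0.87 without forebrain WT replicate 3. For Rbpj-ps3 they were -2.67 and -2.70, and -2.69 and -2.71 without that library.

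**Figure D1:**
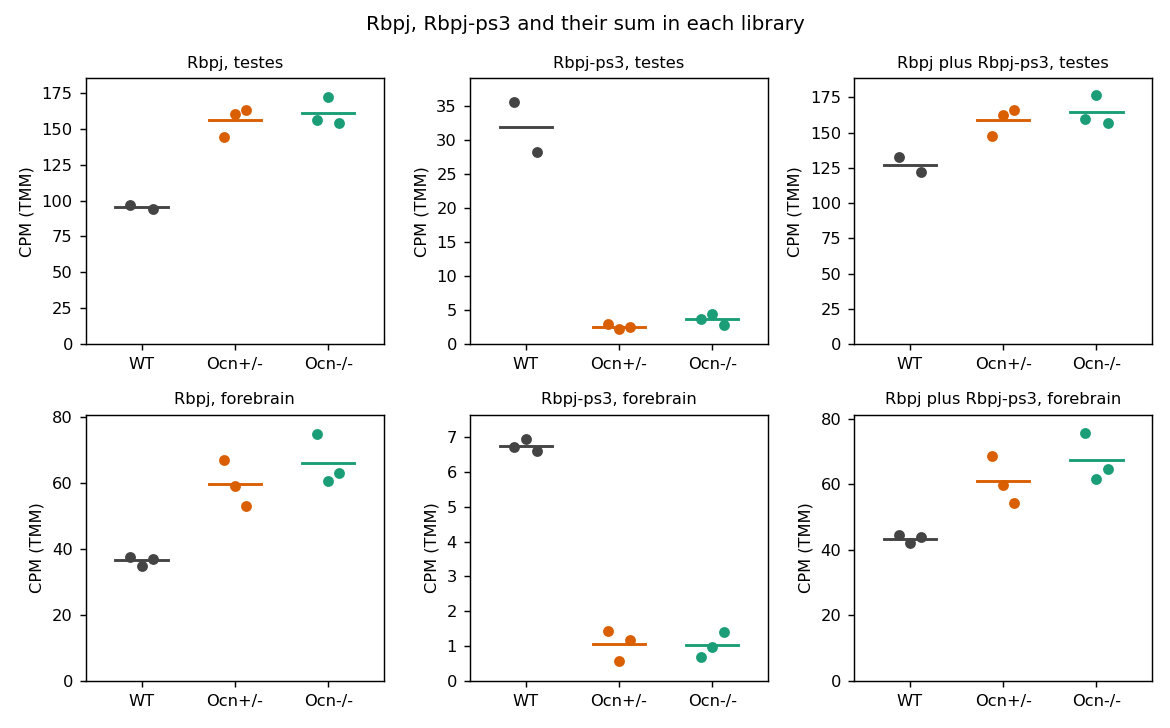
CPM (TMM) of Rbpj, Rbpj-ps3 and their sum, with a point for each library and a bar at the group mean, for WT, Ocn+/- and Ocn-/- testes (top) and forebrain (bottom). Mutant points lie above WT for Rbpj and for the sum and below WT for Rbpj-ps3 in both organs.

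The fractional parts of the counts cancelled within the pair. RSEM divides a read that fits several transcripts among them in fractions, and the estimated count of Rbpj was not a whole number in any of the 17 libraries. The sum of Rbpj and Rbpj-ps3 was whole, within 0.01, in 17 of 17. The sum therefore does not change with how reads are split inside the pair, whereas each row does. In testes the sum was 1023 and 967 counts in WT, 1111, 1290 and 1206 in Ocn+/-, and 1345, 1387 and 1241 in Ocn-/-. In forebrain it was 582, 364 and 246 in WT, 1015, 770 and 807 in Ocn+/-, and 946, 920 and 859 in Ocn-/-.

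The sum was also higher in mutants than in WT, by less than Rbpj alone. In testes it stood at 127 ± 7.45 CPM in WT, at 159 ± 9.78 in Ocn+/- and at 164 ± 10.8 in Ocn-/-, or 1.25-fold and 1.29-fold of WT. In forebrain it stood at 43.4 ± 1.27 CPM in WT, at 60.9 ± 7.28 in Ocn+/- and at 67.3 ± 7.33 in Ocn-/-, or 1.40-fold and 1.55-fold of WT. No mutant library overlapped WT for the sum in either organ, with the lowest mutant value at 147.6 against the highest WT value at 132.5 CPM in testes, and 54.2 against 44.4 CPM in forebrain. As background, every mutant library was above every WT library for 12.4% of genes tested in testes and 6.85% in forebrain, and since the pair was chosen for this contrast nothing is read from that. The log2 differences of the sum were 0.32 and 0.37 in testes and 0.49 and 0.63 in forebrain, or 0.50 and 0.64 in forebrain without WT replicate 3.

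The loss of Rbpj-ps3 was smaller than the gain of Rbpj. In testes Rbpj gained 60.7 CPM in Ocn+/- and 65.2 CPM in Ocn-/- over the WT mean, while Rbpj-ps3 lost 29.2 and 28.2 CPM, equal to 48.2% and 43.2% of the gain. In forebrain Rbpj gained 23.2 and 29.7 CPM and Rbpj-ps3 lost 5.69 and 5.73 CPM, or 24.6% and 19.3% of the gain. The sum of both annotated rows, which stays the same when reads move between them, gained 31.5 and 37.1 CPM in testes and 17.5 and 23.9 CPM in forebrain. The part of read assignment in the gain of Rbpj was not tested. Whether the reads counted on Rbpj-ps3 in WT carried its bases at the 4 differing positions was not tested, since no reads were used here, and reads from the 2420 bases outside the annotation cannot be placed by these counts.

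The share of the pair assigned to Rbpj-ps3 also separated WT from mutants without overlap. It was 26.8% and 23.1% in the WT testes libraries, against 1.36% to 2.06% in Ocn+/- and 1.82% to 2.54% in Ocn-/- testes. In forebrain it was 15.1% to 16.6% in WT, 0.966% to 2.17% in Ocn+/- and 0.890% to 2.18% in Ocn-/-. Group means were 24.9% ± 2.59 (SD, n = 2) in WT testes and 15.6% ± 0.852 (n = 3) in WT forebrain, and 1.56% to 2.22% in the mutant groups of both organs. Per kilobase of its annotated transcript, Rbpj-ps3 stood at 22.1 CPM in WT testes against 17.5 CPM for Rbpj, and at 4.69 against 6.73 CPM in WT forebrain. In Ocn-/- libraries it stood at 2.55 CPM per kilobase against 29.5 for Rbpj in testes, and at 0.709 against 12.2 in forebrain.

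**Figure D2:**
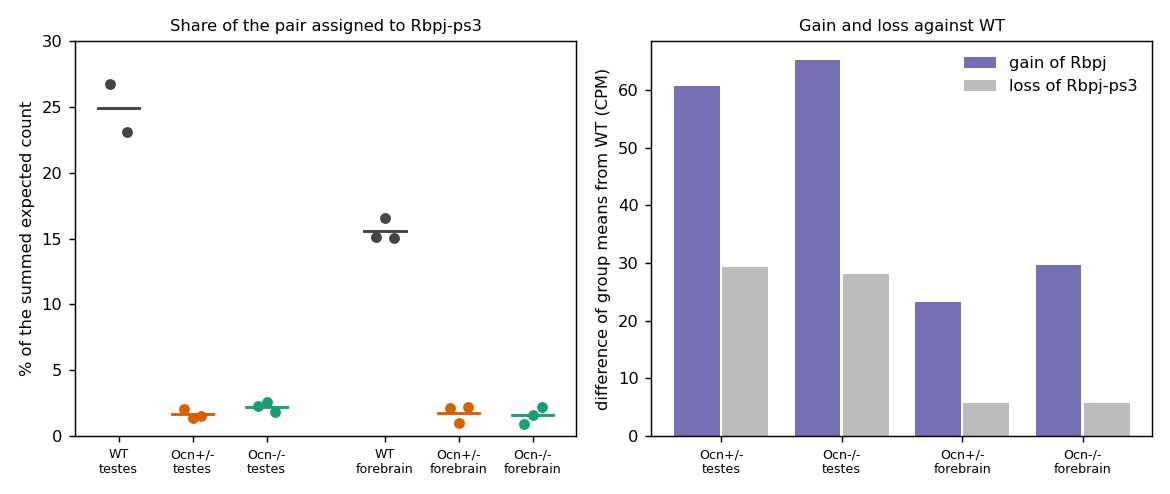
Left, share of the summed estimated count of Rbpj and Rbpj-ps3 assigned to Rbpj-ps3 in each library, in percent, with a bar at the group mean. Right, gain of Rbpj and loss of Rbpj-ps3 as differences of group means from WT, in CPM. WT libraries lie at 15.1% or more and mutant libraries at 2.54% or less, and the gain is 2.08 to 5.18 times the loss.

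Ocn+/- and Ocn-/- libraries, which both came from Ocn-/- mothers, were compared by a test because the choice of genes did not use that contrast. In testes Ocn-/- exceeded Ocn+/- by a log2 fold change of 0.04 for Rbpj (95% interval -0.18 to 0.26, edgeR adjusted p = 0.913), and by 0.52 for Rbpj-ps3 (-0.06 to 1.11, adjusted p = 0.477). In forebrain the values were 0.15 for Rbpj (-0.07 to 0.37, adjusted p = 0.999) and -0.03 for Rbpj-ps3 (-0.84 to 0.79, adjusted p = 0.999). For the sum they were 0.05 (-0.17 to 0.27) in testes and 0.14 (-0.07 to 0.36) in forebrain. No difference between the mutant genotypes passed the threshold for the pair, and the intervals still allow changes of up to 1.11 on the log2 scale for the pseudogene.

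Other rows of the same name held few counts. Rbpj-ps1, another pseudogene of Rbpj, had 0 to 3 counts in each library, and Rbpjl, the RBPJ-like factor best known from pancreatic acinar cells, had 0 to 14, so neither was tested. Among processed pseudogenes tested, and as a value that its choice by this same difference largely fixed, Rbpj-ps3 had the lowest log2 difference of 415 in both mutant testes groups, the lowest of 370 in Ocn+/- forebrain and the second lowest in Ocn-/- forebrain.

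The nearest tested genes around the pair were described as well, and some of them lay far away. Those around Rbpj spanned chr5:52932751-57879729, and those around Rbpj-ps3 spanned chr6:42599950-47850471, with Tcaf1 at chr6:42644915-42687171 and Pdia4 at chr6:47770077-47790462. Of the 5 nearest tested genes on each side of Rbpj, none of 10 passed edgeR's test in either mutant genotype in either organ, a count too small to be read against the 8.25% and 5.64% of all genes that passed in Ocn+/- and Ocn-/- testes and the 3.89% and 4.85% in forebrain, with log2 differences between -0.49 and 1.41 in testes and between -0.41 and 0.94 in forebrain. Around Rbpj-ps3, Tcaf1, a regulator of the TRPM8 channel, fell by 0.57 on the log2 scale in Ocn+/- testes (adjusted p = 0.0228), and Pdia4, a disulfide isomerase of the endoplasmic reticulum, fell by 0.53 (adjusted p = 0.0475), which made 2 of 10 where 8.25% of all genes passed, while none of 10 passed in Ocn-/- testes or in forebrain. Rny3, a small noncoding RNA gene named after its values were seen, had the lowest value there, at -2.93 and -4.60 in forebrain (adjusted p = 0.386 and 0.239). Cntnap2, the neuronal adhesion gene whose intron holds Rbpj-ps3, was tested in forebrain only and differed from WT by 0.02 in Ocn+/- and by -0.06 in Ocn-/-.

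The genes whose log2 CPM followed that of the pair most closely are given as a description over the libraries of an organ, which share their genotypes. Over the 8 testes libraries the highest Pearson correlations with Rbpj were those of Gas2l3 (0.971), Gm3194 (0.969) and Ep400 (0.968), and with Rbpj-ps3 those of Nr4a2 (0.993), Tdrd5 (0.992) and Gimap4 (0.986). Over the 9 forebrain libraries they were Zfp46 (0.988), Lztfl1 (0.985) and Ppp4r1 (0.981) for Rbpj, and Lpcat3 (0.994), Ints6l (0.988) and Unc13b (0.972) for Rbpj-ps3. No gene was in the first 3 in both organs. Gm3194 differed from WT by 8.16 and 7.79 on the log2 scale in Ocn+/- and Ocn-/- testes, a value that is uncertain where near-identical copies share its reads, and Nr4a2, an orphan nuclear receptor of the immediate early response, differed by -3.89 and -3.51.

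Of the receptors, Notch1 rose in Ocn+/- testes and Notch3 fell in Ocn-/- testes, while no receptor passed edgeR's quasi-likelihood test in forebrain. Notch1, the receptor that maintains progenitors in many tissues, stood at 62.9 and 61.0 CPM in WT testes, at 97.8, 73.9 and 87.8 in Ocn+/-, and at 66.2, 69.7 and 74.1 in Ocn-/-. All mutant testes libraries were above WT. The log2 difference was 0.48 ± 0.14 (SE) in Ocn+/- (edgeR adjusted p = 0.0410) and 0.18 ± 0.14 in Ocn-/- (adjusted p = 0.467). In Ocn+/- testes, Notch1 was the only gene of the 8 that passed, where 8.25% of all genes tested did. Leaving out either WT library, Ocn-/- replicate 1, or Ocn+/- replicate 1 or 3 ended the call, with adjusted p-values of 0.205, 0.249, 0.0531, 0.152 and 0.112. A block for replicate number in the edgeR fit also ended the call (adjusted p = 0.0736). In forebrain Notch1 stood at 60.3, 75.6 and 82.2 CPM in WT, at 49.1, 60.8 and 59.3 in Ocn+/- and at 53.4, 59.7 and 66.8 in Ocn-/-, with groups that overlapped. The log2 differences there were -0.36 ± 0.12 (adjusted p = 0.0986) and -0.27 ± 0.12 (adjusted p = 0.201), and -0.26 and -0.17 without forebrain WT replicate 3. In Ocn+/- forebrain Notch1 was called with no filter on low counts (adjusted p = 0.0250) and without WT replicate 1 (-0.48, adjusted p = 0.0412).

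Notch2, a receptor shared by many epithelial and mesenchymal cells, lies on chromosome 3 with Bglap, 9.63 Mb from it. It stood at 235 CPM in both WT testes libraries, at 314, 293 and 324 in Ocn+/- and at 241, 248 and 325 in Ocn-/-. All mutant testes libraries were above WT, but Ocn-/- replicate 3 stood far above its group. The log2 differences were 0.40 ± 0.14 (adjusted p = 0.0780) and 0.21 ± 0.14 (adjusted p = 0.390). In Ocn+/- testes Notch2 was called by library size alone (adjusted p = 0.0348), by DESeq2 (0.0424), with no filter (0.0473), with only Ocn+/- and WT in the fit (0.0266) and without Ocn-/- replicate 3 (0.0369). Without that library the value in Ocn-/- was 0.056. In forebrain they were -0.15 ± 0.11 and -0.26 ± 0.11, with adjusted p-values of 0.455 and 0.163, and -0.10 and -0.21 without forebrain WT replicate 3.

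Notch3, the receptor of vascular smooth muscle cells and pericytes, stood at 84.5 and 94.2 CPM in WT testes, at 82.6, 87.8 and 87.6 in Ocn+/- and at 72.7, 54.9 and 61.4 in Ocn-/-. All Ocn-/- libraries lay below WT, and the Ocn+/- libraries, with 1 of 3 below WT, overlapped it. The log2 difference in Ocn-/- testes was -0.50 ± 0.13 (adjusted p = 0.0367), against -0.06 ± 0.13 in Ocn+/- (adjusted p = 0.834). The comparison of Ocn-/- with Ocn+/- gave -0.45 ± 0.12, which did not pass (adjusted p = 0.251). The call in Ocn-/- testes was lost without either WT library (adjusted p = 0.116 and 0.431), without Ocn-/- replicate 2 or 3 (0.0583 and 0.0740) and without Ocn+/- replicate 3 (0.0552). It was also lost by library size alone (0.0728), with only Ocn-/- and WT in the fit (0.0565) and with a block for replicate number. In forebrain the log2 differences of Notch3 were -0.25 ± 0.13 and -0.17 ± 0.13, with adjusted p-values of 0.284 and 0.474, and -0.24 and -0.16 without forebrain WT replicate 3.

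Jag1, the Jagged ligand of endothelial cells and of many epithelia, had the largest difference of the 8 that passed the test. It stood at 61.9 and 66.5 CPM in WT testes, at 49.6, 50.9 and 45.0 in Ocn+/-, and at 39.6, 42.6 and 39.4 in Ocn-/-. The Ocn-/- libraries lay below the Ocn+/- libraries and these below WT, with no overlap. The fall was 0.66 on the log2 scale in Ocn-/- (SE 0.13, adjusted p = 0.00833), and the difference in Ocn+/- was -0.41 ± 0.13 (adjusted p = 0.0649, and 0.0451 without Ocn-/- replicate 2). Between Ocn-/- and Ocn+/- testes the difference was -0.26 ± 0.12 (adjusted p = 0.430). Jag1 and Notch3 were the genes of the 8 that passed in Ocn-/- testes, where 5.64% of all genes tested did. The call was lost without either WT library (adjusted p = 0.0598 and 0.209). In forebrain Jag1 overlapped between groups at 8.41 to 13.1 CPM, with log2 differences of 0.13 ± 0.17 in Ocn+/- (adjusted p = 0.705) and 0.02 ± 0.17 in Ocn-/- (adjusted p = 0.963), and of 0.16 and 0.04 without forebrain WT replicate 3.

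Marker sums of vessel cells were lower in both mutant genotypes in testes. Jag1 lay below WT in all mutant libraries there, whereas Notch3 was lower in Ocn-/- only and overlapped WT in Ocn+/-. The 6 endothelial markers (Pecam1, Cdh5, Kdr, Tek, Emcn and Cldn5) summed to 539 to 552 CPM in WT, 340 to 403 in Ocn+/- and 321 to 362 in Ocn-/- testes, with 3 of 6 past the threshold and lower in Ocn+/- and 5 of 6 in Ocn-/-, where 4.36% and 3.09% of all genes were called lower. The 5 mural markers other than Notch3 summed to 378 to 462, 300 to 322 and 239 to 295 CPM, with 1 of 5 and 3 of 5 called lower, and no marker of either list was at 0 in all libraries. In forebrain the endothelial sums were 159 to 185, 141 to 169 and 134 to 186 CPM, with 2 and 1 of 6 called lower, where 2.68% and 3.05% of all genes were. The mural sums there were 181 to 219, 157 to 210 and 169 to 190 CPM, with 1 of 5 called lower in each mutant genotype. The 6 fetal Leydig cell markers summed to 1691 to 1772 CPM in WT, 714 to 1249 in Ocn+/- and 742 to 1134 in Ocn-/- testes, with 1 of 6 called lower in each, and the 6 radial glia markers in forebrain to 927 to 952, 1003 to 1044 and 907 to 1129 CPM, with none of 6 past the threshold. In bulk tissue, fewer cells of a type and less RNA per cell cannot be told apart, and the part of vessel cells in the results for Jag1, Notch3 and Hey1 was not tested.

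No HES or HEY gene passed the edgeR test in either mutant genotype in either organ. These genes are too few for that to be read against the 3.89% to 8.25% of all genes that passed. At an unadjusted p under 0.05 were 2 of 6 tested in Ocn+/- and 3 of 6 in Ocn-/- testes, and 2 of 7 in each mutant genotype in forebrain, where 25.9%, 23%, 20.3% and 21.7% of all genes were. Hes1, a repressor that oscillates in progenitors, stood at 16.7 and 14.4 CPM in WT testes, 17.8, 18.4 and 16.1 in Ocn+/-, and 24.7, 18.4 and 22.2 in Ocn-/-. Ocn-/- libraries were above WT and Ocn+/- libraries overlapped WT. The log2 differences in testes were 0.17 (95% interval -0.25 to 0.59, adjusted p = 0.637) and 0.48 (0.07 to 0.90, adjusted p = 0.154). In forebrain, with groups that overlapped at 5.83 to 9.45 CPM, they were -0.10 (-0.53 to 0.34, adjusted p = 0.837) and -0.33 (-0.77 to 0.10, adjusted p = 0.367), and -0.20 and -0.44 without forebrain WT replicate 3.

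Hes5, the HES gene most restricted to neural progenitors, was scarce in testes, at 12.7 to 22.6 counts a library. In forebrain it stood at 9.01, 8.76 and 7.26 CPM in WT, at 10.3, 8.64 and 8.59 in Ocn+/- and at 11.5, 9.53 and 11.9 in Ocn-/-. Ocn-/- libraries were above WT, and Ocn+/- libraries overlapped it. The log2 differences in forebrain were 0.12 (-0.24 to 0.49, adjusted p = 0.737) and 0.37 (0.01 to 0.73, adjusted p = 0.223), and 0.05 and 0.30 without forebrain WT replicate 3. In testes the intervals spanned -0.92 to 1.01 in Ocn+/- and -1.10 to 0.84 in Ocn-/-, so changes of that size were not detectable at this depth.

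Hey1, a HEY repressor of endothelial and progenitor cells, was the single gene of the 8 whose mutant libraries lay on the same side of WT in both organs. It stood at 12.7 and 10.4 CPM in WT testes, 6.64, 8.46 and 3.30 in Ocn+/-, and 7.23, 6.24 and 5.18 in Ocn-/-. In forebrain it stood at 30.1, 31.2 and 33.3 CPM in WT, at 20.9, 25.7 and 24.6 in Ocn+/- and at 22.5, 23.2 and 26.1 in Ocn-/-. Every mutant library was below every WT library, opposite in direction to Rbpj. That held for 13.6% of all genes tested in testes and 8.57% in forebrain, and the share in both organs at once was not counted. Of the wider pathway list below, Adam10 also lay below WT in every mutant library of both organs. The log2 differences were -0.90 (95% interval -1.59 to -0.21) and -0.89 (-1.57 to -0.20) in testes, with adjusted p-values of 0.0938 and 0.115 and unadjusted ones of 0.0136 and 0.0148. In forebrain they were -0.41 (-0.66 to -0.16) and -0.39 (-0.64 to -0.14), with adjusted p-values of 0.0626 and 0.0638 and unadjusted ones of 0.00306 and 0.00408, and -0.37 and -0.35 without forebrain WT replicate 3 (adjusted p = 0.189 and 0.194). In forebrain Hey1 was called in both genotypes by DESeq2 (adjusted p = 0.0393 and 0.0435) and by edgeR's likelihood ratio test (adjusted p = 0.0422 and 0.0478), and in Ocn-/- also without Ocn-/- replicate 3 (adjusted p = 0.0480). In Ocn+/- testes it was called with no filter on low counts (adjusted p = 0.0458) and without Ocn+/- replicate 2 (-1.19, adjusted p = 0.0373). Hey1 had 24 to 98 counts a library in testes and 187 to 395 in forebrain.

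Heyl, a HEY factor of mural cells and of testicular interstitium, stood at 64.7 and 56.9 CPM in WT testes, with mutant libraries at 55.9 to 83.3 that overlapped WT. Its log2 differences in testes were 0.18 (-0.17 to 0.52) and 0.26 (-0.09 to 0.60), with adjusted p-values of 0.530 and 0.370. In forebrain it stood at 7.70, 6.80 and 8.01 CPM in WT, at 12.8, 10.2 and 9.81 in Ocn+/- and at 5.43, 7.84 and 8.96 in Ocn-/-. All Ocn+/- libraries were above WT there, and the Ocn-/- libraries, with 1 of 3 above WT, overlapped it. The log2 difference in Ocn+/- was 0.55 (0.13 to 0.97, adjusted p = 0.125), against -0.01 (-0.44 to 0.42, adjusted p = 0.982) in Ocn-/-, and 0.59 and 0.03 without forebrain WT replicate 3.

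**Figure D3:**
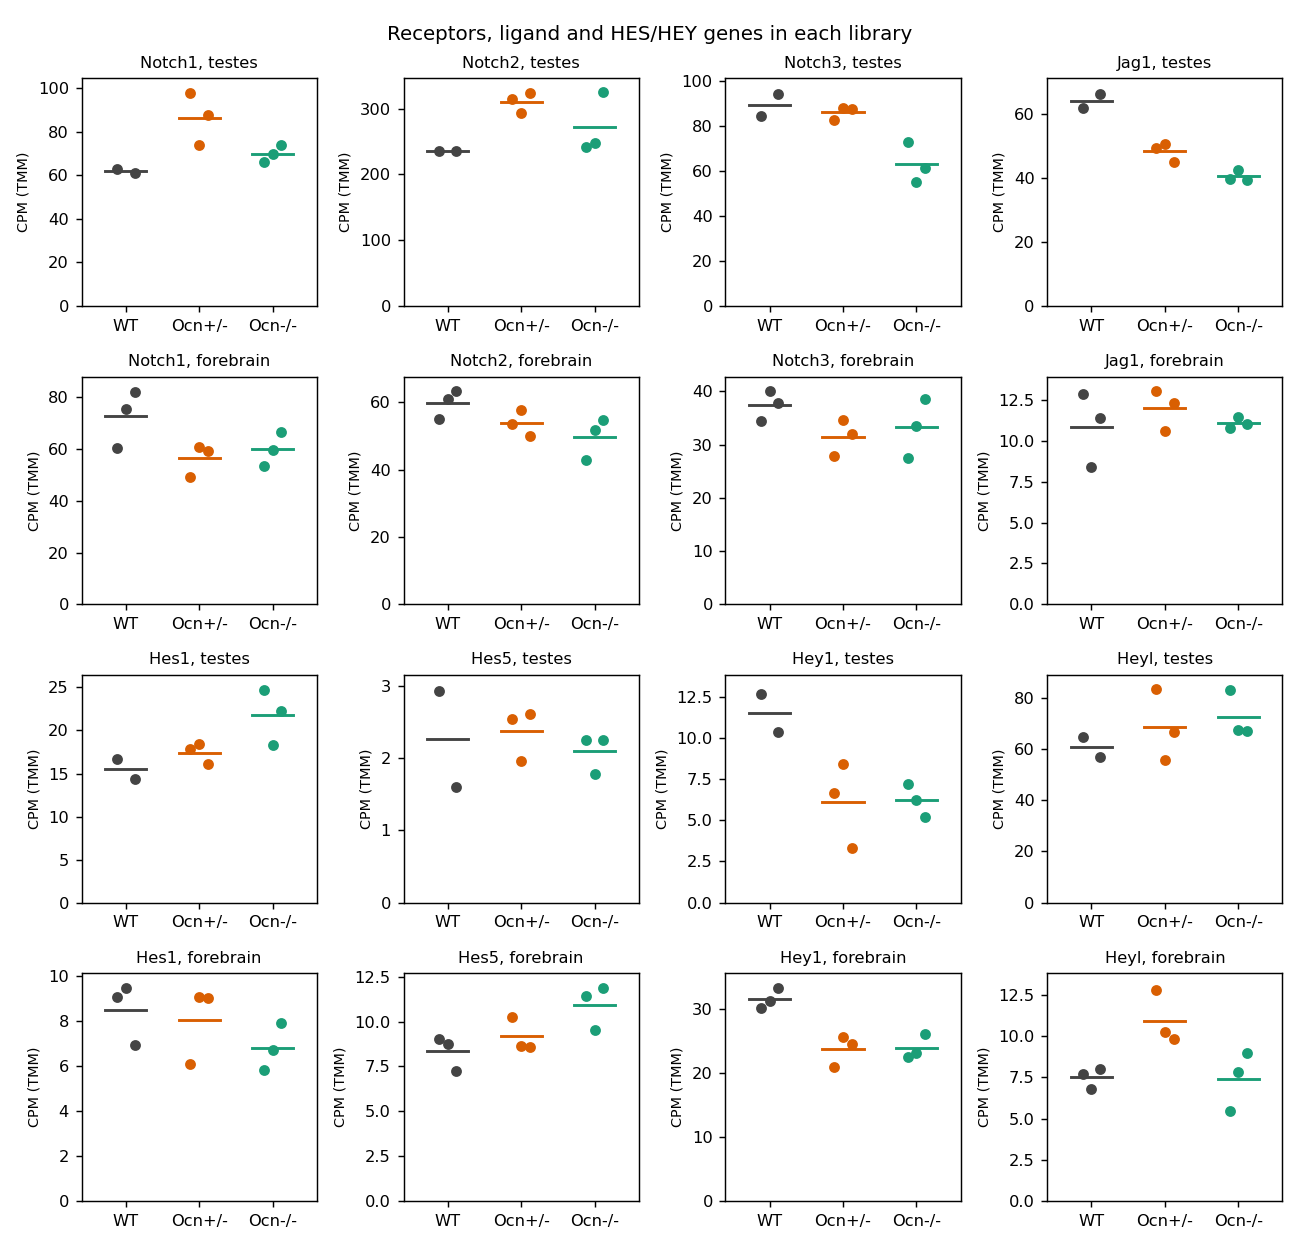
CPM (TMM) of the 3 receptors, Jag1 and the 4 HES and HEY genes, with a point for each library and a bar at the group mean, for WT, Ocn+/- and Ocn-/- in testes and forebrain. Hey1 lies below WT in all mutant libraries of both organs, and Jag1 lies below WT in all mutant testes libraries and overlaps between groups in forebrain.

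Counted over the 8 genes, mutant libraries did not overlap WT for 4 in testes, above WT for Notch1 and Notch2 and below for Jag1 and Hey1, where 26% of all genes tested did not overlap. In forebrain this held for Hey1 alone, where 15.4% of all genes did not overlap and 8.57% lay below WT in every mutant library, beside 13.6% in testes. In Ocn+/- forebrain none of the 8 passed by edgeR, where 3.89% of all genes did, and 3 of 8 were at an unadjusted p under 0.05, where 20.3% of all genes were. In Ocn-/- forebrain none of the 8 passed, where 4.85% of all genes did, and 4 of 8 were at an unadjusted p under 0.05, where 21.7% of all genes were. DESeq2 and the likelihood ratio test called Hey1 in both. Both comparisons use the same WT libraries, so their values are set side by side and are not independent.

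**Figure D4:**
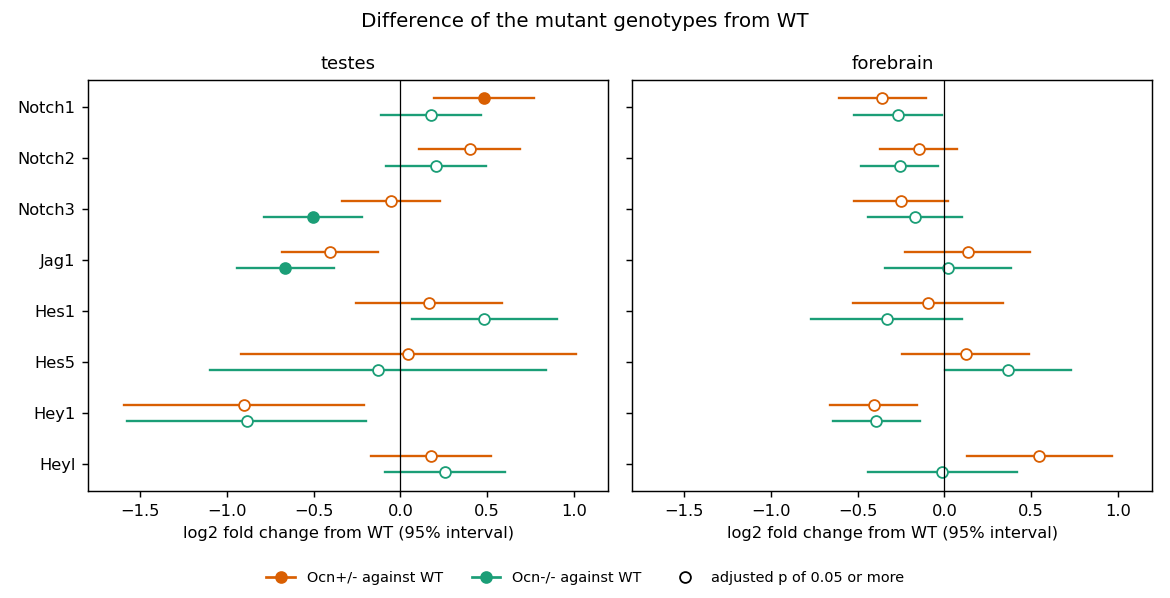
Log2 fold change of Ocn+/- (orange) and Ocn-/- (green) from WT by edgeR, with 95% intervals, for the 8 genes in testes (left) and forebrain (right); filled points have an adjusted p under 0.05. The filled points are Notch1 in Ocn+/- testes (0.48) and Notch3 (-0.50) and Jag1 (-0.66) in Ocn-/- testes.

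The promoters show which of these genes carry letters that RBPJ is known to bind. The RBPJ core TGGGAA, searched on both strands from 250 bases before to 50 after each RefSeq start site (GRCm38.p6), occurred in 25.6% of 32851 promoters. Hes5 and Hey2 held 2 matches each, Hes7 held 1, and the start sites of Rbpj held 2 and 1 in windows that overlap. Hes6, Nrarp, Dtx1, Notch1, Notch2, Notch3 and Jag1 held none in this window, and Hes1, Hey1, Heyl, Hes2 and Hes3 were not in the table. The 250 bases before the start of Hes5 (chr4:154960673-154960922, plus strand, GRCm38.p6) are printed as the target promoter whose matches, in capitals, lie as a pair on opposite strands.
Hes5: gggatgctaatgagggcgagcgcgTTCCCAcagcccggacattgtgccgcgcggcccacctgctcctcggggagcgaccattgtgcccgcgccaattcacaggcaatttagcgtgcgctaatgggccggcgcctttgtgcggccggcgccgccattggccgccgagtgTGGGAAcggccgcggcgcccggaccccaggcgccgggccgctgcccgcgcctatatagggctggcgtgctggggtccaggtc

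Across the wider pathway, 76 genes other than Rbpj were listed by role, and calls were spread over several roles. In Ocn+/- testes 8 of 71 tested (11.3%) passed, 6 higher and 2 lower, beside 8.25% of all genes, of which 3.89% were higher and 4.36% lower. In Ocn-/- testes 6 of 71 (8.45%) passed, 2 higher and 4 lower, beside 5.64% of all genes (2.54% higher, 3.09% lower). In forebrain none of 73 passed in Ocn+/-, where edgeR gave 11 at an unadjusted p under 0.05 (20.3% of all genes) and DESeq2 called Hey1, and 3 of 73 (4.11%) passed in Ocn-/-, 1 higher and 2 lower, beside 4.85% of all genes (1.8% higher, 3.05% lower). In Ocn+/- forebrain 1.21% of all genes were higher and 2.68% lower. The median log2 difference of the list was 0.07, -0.05, -0.04 and -0.02 in these comparisons, against 0.01, -0.01, 0.01 and 0.01 for all genes tested. No listed gene passed between Ocn-/- and Ocn+/- by edgeR in either organ, with 14 of 71 in testes and 2 of 73 in forebrain at an unadjusted p under 0.05, where 11.5% and 3.2% of all genes were, and DESeq2 called 1 in testes, the ligand-like gene Dlk1, and none in forebrain. That comparison called 0 of 16361 genes in testes by edgeR, where DESeq2 called 76, and 0.00622% in forebrain, which was 1 gene, higher in Ocn-/-.

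Among other receptors and ligands, Notch4, the endothelial receptor, differed by -0.25 and -0.61 in Ocn+/- and Ocn-/- testes (adjusted p = 0.574 and 0.175), and Jag2, the other ligand of highest level, by -0.29 and -0.47 (0.357 and 0.145). Of the noncanonical ligands, Dner, a neuronal transmembrane ligand, rose by 0.75 ± 0.22 in Ocn+/- (adjusted p = 0.0470) and by 0.91 ± 0.22 in Ocn-/- testes (adjusted p = 0.0259). It rose from a low WT mean of 8.62 CPM, and its mean over all testes libraries was 13.7 CPM. The call in Ocn+/- was lost in 5 of 8 fits with 1 library left out (either WT library, Ocn-/- replicate 1, and Ocn+/- replicates 1 and 3), and that in Ocn-/- in 3 of 8 (either WT library and Ocn-/- replicate 3). Egfl7, secreted by endothelial cells, fell by 0.81 in Ocn-/- testes (SE 0.17, adjusted p = 0.0134). In forebrain Dner stood at 468 CPM and differed by -0.17 and -0.10, neither past the threshold, and Notch4 and Jag2 differed by -0.15 and -0.16 and by -0.20 and -0.09.

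Targets and nuclear partners of RBPJ changed at a few genes. Dtx1, a target and regulator of Notch, rose by 0.84 ± 0.22 in Ocn+/- testes (adjusted p = 0.0417), and its difference in Ocn-/- was 0.67 ± 0.22 (adjusted p = 0.0972). Of the other HES genes, Hes6, which opposes Hes1, differed by -0.05 and -0.69 in testes (adjusted p = 0.939 and 0.139) and by -0.14 and -0.09 in forebrain. Among the corepressors, Spen, a scaffold that binds RBPJ directly, rose by 0.63 ± 0.12 in Ocn+/- (adjusted p = 0.00807) and by 0.55 ± 0.12 in Ocn-/- testes (adjusted p = 0.0176). In Ocn-/- testes Spen was the 1 of 17 corepressors that passed (5.88%), near the 5.64% of all genes tested that did. None of the 8 coactivators passed in testes, a count too small to be read against the 8.25% and 5.64% of all genes that passed. Ep300, the histone acetyltransferase p300, was at 0.16 and 0.33.

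In Ocn-/- forebrain the coactivator Maml3 fell by 0.65 on the log2 scale (SE 0.16, adjusted p = 0.0226) and Fhl1, whose LIM protein can bind RBPJ, fell by 0.34 (SE 0.09, adjusted p = 0.0348). Their values in Ocn+/- forebrain were -0.35 and -0.17, neither past the threshold. Without forebrain WT replicate 3 the differences in Ocn-/- were -0.46 and -0.35 and no longer passed (adjusted p = 0.137 and 0.0937), and library size alone also ended the call of Fhl1 (adjusted p = 0.175). Both calls were lost without Ocn-/- replicate 1 as well, that of Maml3 without Ocn-/- replicate 2, and that of Fhl1 without WT replicate 2 or Ocn-/- replicate 3.

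Of genes that process or turn over the receptor, Adam10 and Adam17, the proteases that make the first cut in Notch, fell by 0.50 and 0.58 on the log2 scale in Ocn+/- testes (SE 0.12 and 0.14, adjusted p = 0.0181 and 0.0201), with -0.32 and -0.28 in Ocn-/- (adjusted p = 0.111 and 0.238). Dtx2, a Deltex ubiquitin ligase, rose by 0.70 ± 0.21 in Ocn+/- testes (adjusted p = 0.0473). Dtx3, of the same family, fell by 0.71 in Ocn-/- testes (SE 0.15, adjusted p = 0.0146). Itch, a ubiquitin ligase that targets Notch for degradation, rose by 0.55 ± 0.15 in Ocn-/- forebrain (adjusted p = 0.0469), and was at 0.62 without forebrain WT replicate 3 (adjusted p = 0.114). None of the 5 genes of fucose and sugar transfer and none of the 4 of ligand uptake passed in any of the 4 comparisons. These counts are too small to be read against the 3.89% to 8.25% of all genes that passed. Pofut1 was at 0.12 and -0.16 and Mib1 at -0.19 and 0.02 in testes, and Mib1 at -0.02 and -0.12 and Rfng at 0.04 and -0.08 in forebrain. Adam10 in forebrain was at -0.25 and -0.24 (adjusted p = 0.0824 and 0.0860) and Dtx1 at 0.08 and 0.05. The calls named here for testes (Egfl7, Dtx1, Spen, Adam10, Adam17, Dtx2 and Dtx3) were lost without WT replicate 2, and other than that of Dtx3 without WT replicate 1. Those of Dtx1, Adam10 and Dtx2 were also lost without Ocn+/- replicate 1 or 3, that of Adam17 without Ocn+/- replicate 3, and that of Dtx2 without Ocn-/- replicate 1 or Ocn+/- replicate 2. The call of Itch held without Ocn-/- replicate 3 or Ocn+/- replicate 1, and was lost in the other 7 of 9 fits with 1 library left out.

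**Figure D5:**
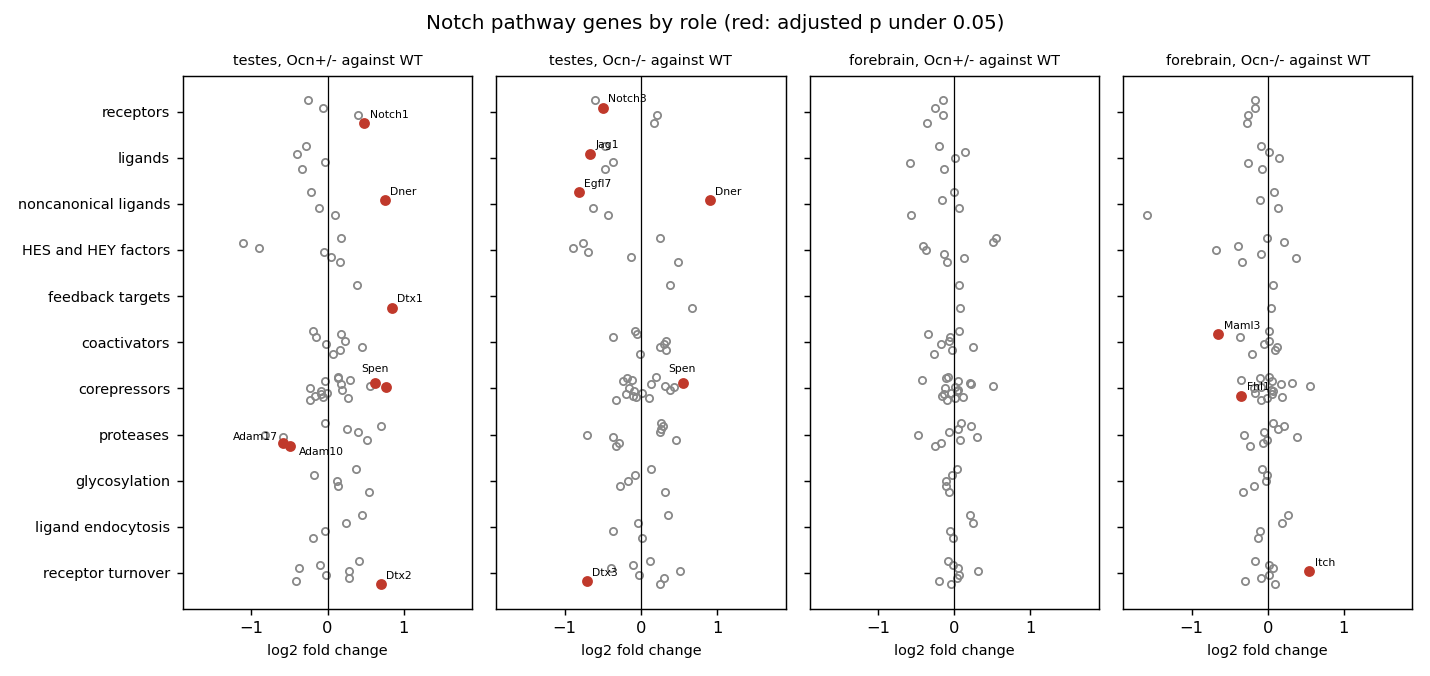
Log2 fold change from WT of each tested pathway gene other than Rbpj, in rows by role, for Ocn+/- and Ocn-/- in testes and forebrain; red points have an adjusted p under 0.05, and those described in the text are named. Red points number 8, 6, 0 and 3 from left to right.

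All calls in testes rest on 2 WT libraries, and single libraries decided the counts. Without WT replicate 1 or 2 the count of listed genes past the threshold in Ocn+/- testes went from 8 to 0 in both cases, and in Ocn-/- testes from 6 to 1 and to 0. In Ocn+/- testes it was 2 and 1 without Ocn+/- replicate 1 or 3, 11 without Ocn+/- replicate 2, and 5, 14 and 12 without Ocn-/- replicate 1, 2 or 3. In Ocn-/- forebrain it went from 3 to 0 without WT replicate 3 or Ocn-/- replicate 1, to 1 without WT or Ocn-/- replicate 2, and to 5 without Ocn-/- replicate 3 or Ocn+/- replicate 1. Normalization by library size alone moved the median of all genes tested by 0.0771 to 0.0999 on the log2 scale in the comparisons with WT. The share of calls that were higher, 47.2% in Ocn+/- and 45.1% in Ocn-/- testes, became 68.1% and 65.2%, and the shares in forebrain, 31% and 37.2%, became 47.7% and 64.5%.

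Levels differed between the organs, given here for WT libraries after a joint normalization and with no test. Rbpj stood at 84.8 ± 1.79 CPM in testes and 40.6 ± 1.78 in forebrain, and Rbpj-ps3 at 28.3 ± 4.50 and 7.48 ± 0.157. Notch2 (209 against 66.3 CPM), Notch3 (79.4 against 41.5), Heyl (54.0 against 8.32), Jag1 (57.1 against 12.1) and Hes1 (13.8 against 9.40) were higher in testes. Hes5 (2.01 against 9.25 CPM) and Hey1 (10.2 against 35.0) were higher in forebrain. Over all 17 libraries, mutants included, every library of the higher organ exceeded every library of the other for these 7 genes and Rbpj, whereas the organs overlapped for Notch1 (55.1 against 80.6 CPM in WT) and Rbpj-ps3. Per kilobase of the canonical transcript the order in WT testes was Notch2 (19.8 CPM), Rbpj-ps3 (19.6), Rbpj (15.6), Heyl (11.9), Jag1 (9.94), Notch3 (9.83), Hes1 (9.04), Notch1 (5.80), Hey1 (2.63) and Hes5 (1.57). In WT forebrain it was Hey1 (8.998), Notch1 (8.50), Rbpj (7.46), Hes5 (7.22), Notch2 (6.28), Hes1 (6.15), Rbpj-ps3 (5.19), Notch3 (5.13), Jag1 (2.10) and Heyl (1.83).

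Whether the mutant difference itself depended on the organ was tested by the interaction of organ and genotype in a joint fit, which called 2.96% of all genes (1.71% higher in forebrain than in testes, 1.24% lower). Of the 8 genes, Notch1 passed, with a forebrain difference lower than that of testes (interaction -0.63 on the log2 scale, SE 0.17, adjusted p = 0.0413). The call was lost without forebrain WT replicate 3 (-0.55, adjusted p = 0.121), and in 12 of 17 fits with 1 library left out. Notch2 (-0.49, adjusted p = 0.0765), Jag1 (0.62, adjusted p = 0.0669), Hes1 (-0.53, adjusted p = 0.273) and Hey1 (0.50, adjusted p = 0.320) did not pass.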

How the data were processed

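RNA of 17 libraries (8 testes, 9 forebrain) was sequenced (NEBNext Ultra kit). Per the labels and the study's methods, the authors trimmed reads (Trim Galore 0.6.6), aligned them to GRCm39 (STAR 2.7.8a) and estimated expected counts per gene (RSEM 1.3.3), which were deposited as 1 table; strandedness and the GENCODE release are not given in the sources used here. Identifiers were matched to GENCODE for 54749 of 55359 genes. Expected counts were rounded and fitted per organ with edgeR 4.0.16 (filterByExpr, TMM, quasi-likelihood test, Benjamini-Hochberg over all genes, threshold 0.05) on R 4.3.3, over 16361 genes in testes and 16076 in forebrain; a joint fit of 17800 genes gave the organ by genotype interaction. Scripts were tested on simulated counts. CPM per kilobase used the Ensembl canonical transcript. Alternatives were upper-quartile and library-size scaling, DESeq2 1.42.0, other filters, a likelihood ratio test, 2 genotypes only, a replicate block, the pair merged, and each library left out. The members, the 77-gene pathway list and the marker lists were chosen with earlier results of these data known. Named genes are the 10 members; per role and organ, up to 3 listed genes with the smallest p among those past the threshold, or else the gene of highest level; genes whose symbol begins with Rbpj; neighbors past the threshold; and the 3 genes most correlated with Rbpj and with Rbpj-ps3. Dlk1, Rny3 and Cntnap2 were named after their values were seen. The values of 1 listed gene that passed are not reported here.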

Additional observations from a re-analysis of the deposited data

Results flagged for a closer look

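The difference between mutants and WT differed between the organs for Notch1 and Dner, among others listed, by the interaction of organ and genotype in an edgeR fit of both organs, which called 2.96% of 17800 genes. The forebrain difference minus the testes difference was -0.63 on the log2 scale for Notch1 (95% interval -0.98 to -0.28, adjusted p = 0.0413), whose values were 0.48 and 0.18 in testes and -0.36 and -0.27 in forebrain for Ocn+/- and Ocn-/-. It was -0.95 for Dner (-1.29 to -0.61, adjusted p = 0.00289), a gene at 13.7 CPM in testes and 468 CPM in forebrain. Dner kept its call without 16 of the 17 libraries in turn, losing it without testes WT replicate 1 (adjusted p = 0.0591), whereas Notch1 kept its call without 5 of the 17 and lost it without 12, among them forebrain WT replicate 3 (-0.55, adjusted p = 0.121).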

How the results depend on the processing

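Rbpj, Rbpj-ps3 and their sum kept their direction from WT in every alternative run, those on the sum having been chosen after seeing the data. With 1 library left out, the log2 difference of Rbpj in Ocn+/- and Ocn-/- ranged from 0.68 to 0.77 and 0.70 to 0.79 in testes and from 0.62 to 0.79 and 0.76 to 0.92 in forebrain, and library size alone gave 0.83 in Ocn-/- testes. The count of listed genes past the threshold moved more. In Ocn+/- testes (8) it was 13 by library size alone, 13 with no filter and 13 with only the 2 genotypes compared, and 0 to 14 with 1 library left out. In Ocn-/- testes (6) it was 12 with no filter and 0 to 9 with 1 library left out. In Ocn+/- forebrain (0) it was 1 by DESeq2, with no filter and by the likelihood ratio test, and 0 to 1 with 1 library left out. In Ocn-/- forebrain (3) these gave 6, 6 and 5, and 0 to 5 with 1 library left out. Between the mutants (0 in both organs), no filter gave 1 in each and DESeq2 1 in testes. For the interaction (3), no filter gave 8, the likelihood ratio test 6, and left-out libraries 0 to 11. The replicate numbers were not taken to pair the libraries within an organ (correlations of same-numbered libraries between genotypes -0.0937 to 0.0871 in testes and -0.0366 to 0.146 in forebrain). Whether testes and forebrain libraries came from the same pups was not checked, and the joint fit took all libraries as independent. A replicate block gave 5 calls in each mutant genotype in testes, and 2 (Ocn+/-) and 6 (Ocn-/-) in forebrain. Calls lost with the block were Notch1 (adjusted p = 0.0736), Dtx2 (0.0814) and Dner (0.0956) in Ocn+/- testes, and Notch3 (0.0576) and Dner (0.0531) in Ocn-/- testes. Calls gained with it were Itch in Ocn-/- testes, Hey1 in both genotypes in forebrain (0.0432 and 0.0414), Notch1 in Ocn+/- forebrain (0.0314), and Aph1b and Dtx3 in Ocn-/- forebrain. Of 560 values for single genes among the 8, 512 kept direction and side of the threshold, 16 lost and 18 gained a call, and 14 changed sign, none past the threshold in either sign. These were Notch3 in Ocn+/- testes (0.022 by library size alone, -0.13 to 0.043 with 1 library left out), Hes5 in testes (-0.30 to 0.54 with 1 library left out for Ocn+/-, -0.024 without Ocn+/- replicate 3, and -0.48 to 0.37 for Ocn-/-), Hes1 in Ocn+/- forebrain (-0.20 to 0.073), Jag1 in forebrain (-0.026 to 0.30 for Ocn+/-, and -0.14 to 0.19 for Ocn-/-, with -0.0026 without Ocn-/- replicate 2) and Heyl in Ocn-/- forebrain (0.085 by library size alone, 0.0022 with no filter, and -0.17 to 0.17, with 0.016 and 0.031 without WT replicate 1 or 3). The causes were not tested.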
